A study of Mus musculus with 4 samples.

Results

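The genes described here are 10 receptors and enzymes of the cell surface, many of them used to recognise exhausted T cells. They are the checkpoint receptors Pdcd1, Ctla4, Lag3, Havcr2, Tigit, Cd160, Btla and Vsir, and the ectoenzymes Entpd1 and Cd38. They were chosen as named checkpoint receptors and ectoenzymes, with earlier results of these data known, and all 10 were found among the 14934 genes of the deposited count table. RNA was sequenced from CD8 T cells sorted out of mouse hepatocellular carcinoma. One group was positive for JAML, an immunoglobulin superfamily receptor of the cell surface, and the other was negative for it. The labels give both groups as wild-type T cells and name no drug treatment, while strain, age and tumour model are not stated there. Each group had 2 libraries, lettered A and B, and the titles call the JAML-negative group CON.

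T cells that meet antigen for a long time, as in a tumour, come to carry several inhibitory receptors at once. PD-1 and TIGIT recruit phosphatases to their tails, CTLA-4 competes with the costimulatory receptor CD28 for shared ligands, and CD39 and CD38 degrade extracellular ATP and NAD on a path that ends in immunosuppressive adenosine. These receptors are also made by recently activated T cells, and CTLA-4, TIGIT and CD39 by regulatory T cells, so their transcripts alone do not define a state.

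Library totals were 27530187 to 30569728 counts, and counts of the 10 genes ran from 731 to 12184 per library, and the reads carry no molecular identifiers, so that counting error at a given count is a lower bound on the error of an amplified library. Levels are counts per 1000000 (CPM) on the scale of edgeR's TMM factors. Whether A and B came from separate animals or sorts is not stated in the labels, so the spread behind each p-value is that of these libraries and could be purely technical. Jaml, the gene of the sort marker, was at 131 and 117 CPM in JAML-negative A and B and at 138 and 147 CPM in JAML-positive A and B (log2 fold change 0.20, SE 0.27, edgeR adjusted p = 0.881). The T cell genes Cd8a (log2 fold change -0.03, SE 0.19) and Cd3e (0.05, SE 0.21) were abundant in every library, and Cd4 (0.33, SE 0.27) was present at 120 to 173 CPM. JAML-positive A stood apart, with 12.1% of its counts from ribosomal protein genes against 7.46% to 8.33% in the other libraries. In bulk RNA, fewer cells that make a transcript and less of it per cell cannot be told apart.

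No gene of the 10 passed the test. With edgeR's quasi-likelihood test, 0 of 10 had an adjusted p under 0.05, as did 0% of the 11563 genes tested, and their adjusted p lay between 0.609 and 0.977. At an unadjusted p under 0.05 there were 3 of 10, Havcr2, Ctla4 and Vsir, against 7.65% of all genes tested. Limma-voom also passed 0 of 10 and 0% of all genes. DESeq2 passed 1 of 10, Vsir (adjusted p = 0.00915), where it passed 7.65% of all genes. Values were higher in JAML-positive cells for 5 of the 10 genes and lower for 5, against 5867 higher and 5696 lower over all genes tested. The median log2 fold change of the 10 was 0.12, against 0.01 over all genes tested. The CPM of the groups did not overlap for 6 of 10 genes, against 38.5% of all genes tested. The JAML-positive pair was above the JAML-negative pair for Pdcd1, Ctla4, Lag3 and Havcr2 (4 of 10, against 20.3% of all genes tested). It was below for Vsir and Entpd1 (2 of 10, against 18.2%). The groups overlapped for Tigit, Cd160, Btla and Cd38.

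**Figure D1:**
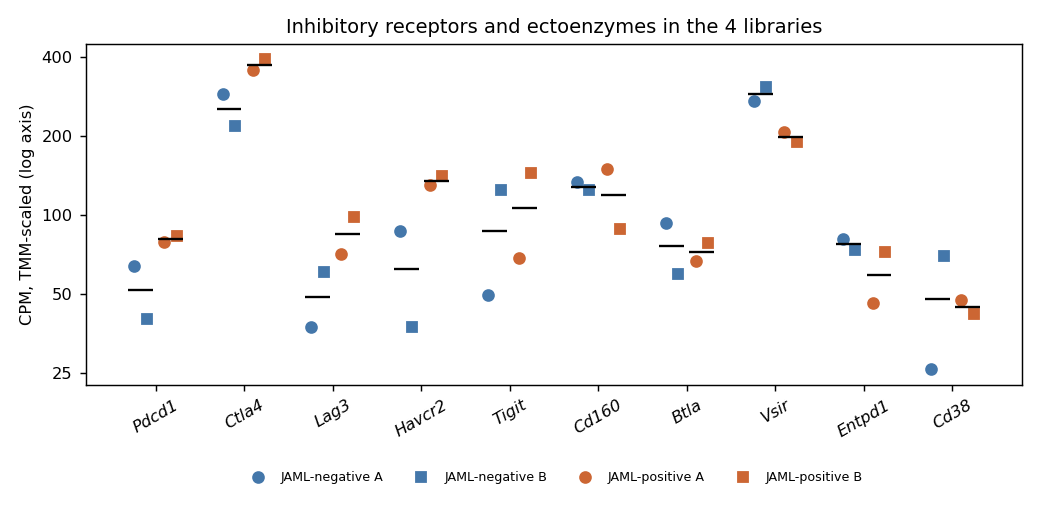
Level of each gene in the 4 libraries (CPM, log axis), with circles for library A, squares for library B and a black line at each group mean (n = 2). JAML-positive libraries lie above JAML-negative ones for Pdcd1, Ctla4, Lag3 and Havcr2 and below them for Vsir and Entpd1.

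Havcr2 encodes TIM-3, a receptor of terminally exhausted T cells and of some dendritic cells and macrophages (chromosome 11, 46454931 to 46481255, GRCm38). It was at 87.2 and 37.7 CPM in JAML-negative A and B, and at 130 and 141 CPM in JAML-positive A and B. The JAML-positive libraries were close to each other, while the JAML-negative ones differed from each other, B being at 0.432 of A. The means were 62.5 ± 35.0 and 135 ± 7.50 CPM (SD, n = 2), a 2.16-fold difference (95% interval 1.24 to 3.78; log2 fold change 1.11, SE 0.37, edgeR adjusted p = 0.609). Its size followed the choice of JAML-negative library. The log2 fold change was 1.84 without JAML-negative A and 0.64 without JAML-negative B, and did not pass the threshold in either case.

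Ctla4 encodes CTLA-4, which takes CD80 and CD86 away from CD28 (chromosome 1, 60909025 to 60915832). It was at 289 and 218 CPM in JAML-negative A and B, and at 357 and 390 CPM in JAML-positive A and B. Each JAML-positive library exceeded each JAML-negative one, and the groups were 1.47-fold apart (95% interval 1.04 to 2.08; log2 fold change 0.56, SE 0.23, edgeR adjusted p = 0.609). Pdcd1 encodes PD-1, the receptor for PD-L1 and PD-L2 (chromosome 1, 94038305 to 94052553). It was at 64.1 and 40.2 CPM in JAML-negative A and B and at 79.2 and 83.0 CPM in JAML-positive A and B. The groups did not overlap, and as for Havcr2 and Ctla4 the lowest library was JAML-negative B (log2 fold change 0.64, SE 0.37, edgeR adjusted p = 0.646).

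Lag3 encodes a receptor related to CD4 that binds MHC class II and FGL1 (chromosome 6, 124904359 to 124912434). Its levels were 37.4 and 60.5 CPM in JAML-negative A and B and 71.2 and 98.1 CPM in JAML-positive A and B. Here the lowest library was JAML-negative A, and library B was higher than A in both groups (log2 fold change 0.80, SE 0.38, edgeR adjusted p = 0.609). The summed level of Pdcd1, Ctla4, Lag3 and Havcr2 was 478 and 356 CPM in JAML-negative A and B and 637 and 711 CPM in JAML-positive A and B. These 4 were grouped after their values were seen, so the sum is a description.

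Tigit encodes a receptor for CD155 and nectins that competes with the activating receptor CD226 (chromosome 16, 43626137 to 43665125). It was at 49.5 and 125 CPM in JAML-negative A and B, and at 68.9 and 144 CPM in JAML-positive A and B. Library B was 2.51-fold above A in the JAML-negative and 2.09-fold above A in the JAML-positive group, more than the 1.24-fold group difference (log2 fold change 0.31, SE 0.44, edgeR adjusted p = 0.888). The groups overlapped, and the direction turned without JAML-positive B (-0.33) or without JAML-negative A (-0.22).

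Cd160 and Btla encode receptors for HVEM, the product of Tnfrsf14. Cd160 was at 133 and 124 CPM in JAML-negative A and B, and at 150 and 88.2 CPM in JAML-positive A and B, the latter holding both the highest and the lowest value (log2 fold change -0.12, SE 0.31, edgeR adjusted p = 0.951). Exons of Cd160 overlap those of Pdzk1 on the opposite strand over 2.6% of their bases, and the counting's use of strand is not given. Btla was at 93.1 and 59.9 CPM in JAML-negative A and B and at 67.1 and 78.1 CPM in JAML-positive A and B. Its JAML-positive values lay inside the JAML-negative range (log2 fold change -0.07, SE 0.35, edgeR adjusted p = 0.976). The 95% intervals reached from 0.576-fold to 1.47-fold for Cd160 and from 0.557-fold to 1.62-fold for Btla, so differences of that size in either direction were not excluded.

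Vsir encodes VISTA, a receptor of resting T cells and myeloid cells that is held to keep T cells quiescent (chromosome 10, 60346851 to 60430294). It was at 271 and 307 CPM in JAML-negative A and B, and at 207 and 190 CPM in JAML-positive A and B. Both groups were tight, and the JAML-positive level was 0.685 of the JAML-negative one (95% interval 0.486 to 0.963; log2 fold change -0.55, SE 0.23, edgeR adjusted p = 0.609). The value stayed between -0.66 and -0.45 in all 15 alternatives tried, and among them only DESeq2 passed it (adjusted p = 0.00915, range over the alternatives 0.00915 to 0.903).

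**Figure D2:**
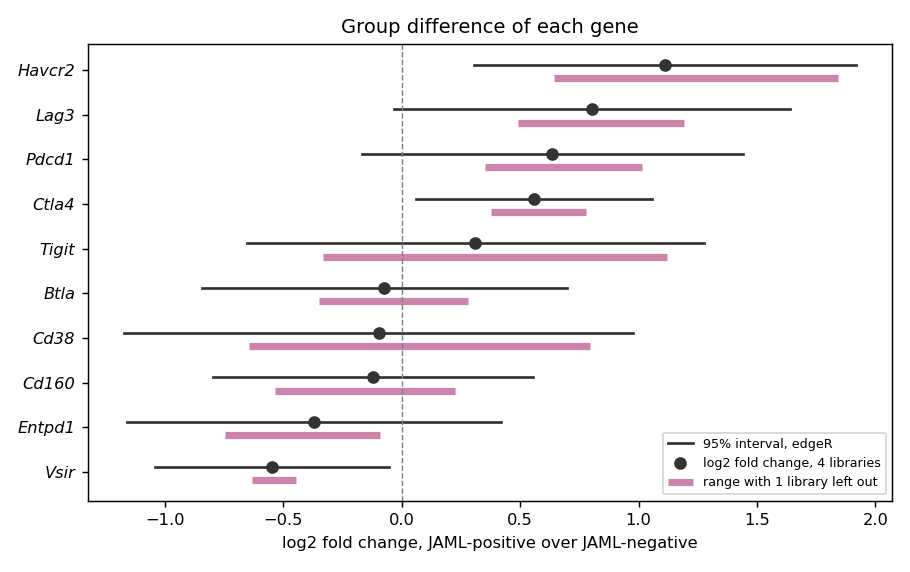
Log2 fold change of each gene (JAML-positive over JAML-negative; point) with its 95% interval from edgeR (thin line) and, below it, the range of values with 1 library left out (thick line). The thick lines of Havcr2, Lag3, Pdcd1, Ctla4, Entpd1 and Vsir stay on one side of 0, and those of Tigit, Btla, Cd38 and Cd160 cross it.

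Entpd1 encodes CD39, which degrades extracellular ATP to AMP (chromosome 19, 40612366 to 40741602). It was at 81.3 and 73.9 CPM in JAML-negative A and B, and at 46.2 and 72.5 CPM in JAML-positive A and B. JAML-positive B was almost level with JAML-negative B, and JAML-positive A was lower than both (log2 fold change -0.37, SE 0.36, edgeR adjusted p = 0.823). Without JAML-positive A the value was -0.09. Cd38 encodes CD38, an NAD hydrolase (chromosome 5, 43868809 to 43912374). It was at 25.9 and 69.7 CPM in JAML-negative A and B and at 47.5 and 41.9 CPM in JAML-positive A and B. The JAML-negative libraries were 2.70-fold apart and enclosed the JAML-positive ones (log2 fold change -0.10, SE 0.49, edgeR adjusted p = 0.977). The direction changed with the JAML-negative library used, at 0.79 without B and -0.64 without A.

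The 10 genes differed in how the gap between libraries of one group compared with the gap between groups. Among 5979 tested genes with a mean of 25 to 500 CPM, the median gap between libraries A and B was 0.42 on the log2 scale, averaged over the groups. Of the 10, 6 lay above that median. The widest gap was that of Tigit (1.20) and the narrowest that of Vsir (0.15). The difference between group means of log2 CPM exceeded the gap within groups for 6 of 10 genes, Havcr2, Lag3, Pdcd1, Ctla4, Vsir and Entpd1, where this held for 39.8% of the 5979 genes.

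**Figure D3:**
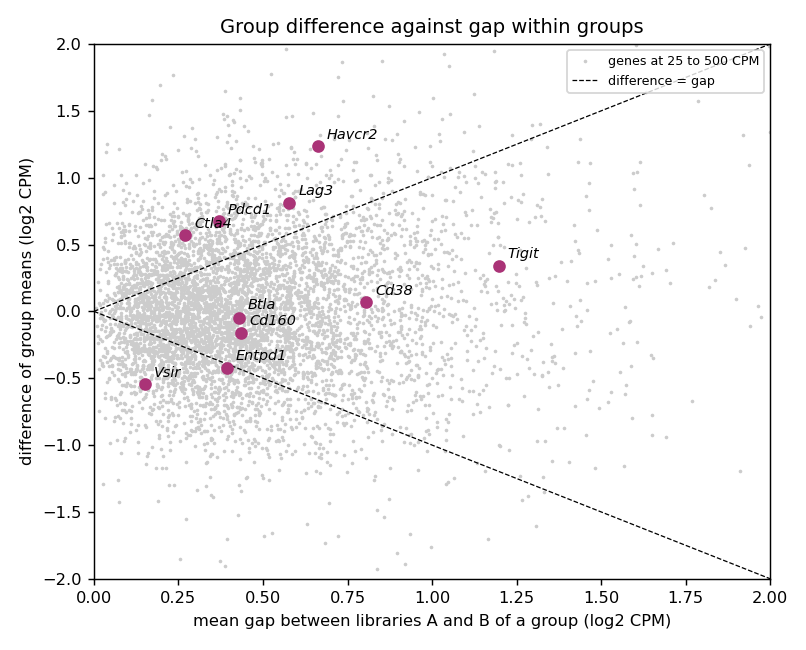
Difference between the group means (JAML-positive minus JAML-negative, log2 CPM) against the mean gap between libraries A and B of a group (log2 CPM), for the 10 genes (labelled) and for 5951 of 5979 genes at 25 to 500 CPM (grey), those within 2 on either axis. Outside the dashed lines the difference exceeds the gap, as for Havcr2, Lag3, Pdcd1, Ctla4, Vsir and, narrowly, Entpd1.

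Levels were compared between genes per 1000 bases of the longest GENCODE transcript. In JAML-negative cells the mean level was highest for Ctla4 (131 CPM per 1000 bases), followed by Tigit (94.7), Vsir (59.7) and Cd160 (49.6). Of these, Ctla4 and Tigit overlapped, as did Tigit and Vsir, while Vsir and Cd160 were separate. Pdcd1 (27.0), Lag3 (24.4), Btla (23.5), Havcr2 (23.0), Entpd1 (18.4) and Cd38 (14.6) came after them, and each of these overlapped its neighbour in the order. In JAML-positive cells Ctla4 (193) and Tigit (116) again had the highest levels, each separate from the next. Havcr2 (49.7), Cd160 (46.0), Lag3 (42.3), Pdcd1 (42.0) and Vsir (40.9) formed a middle group whose neighbours overlapped, and Btla (22.3), Entpd1 (14.1) and Cd38 (13.7) came last. Havcr2 thus held the eighth mean level in JAML-negative and the third in JAML-positive cells, and Vsir the third and the seventh.

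The bases before the transcription start are shown for Havcr2 and Ctla4, the genes with the smallest p among the higher ones, and for Vsir, the one among the lower. Each run is the 250 bases upstream of the RefSeq start on the plus strand of GRCm38.p6 (Havcr2 chr11:46454681-46454930, Ctla4 chr1:60908775-60909024, Vsir chr10:60346601-60346850). The bases just after the start occur in a GENCODE transcript of Ctla4 and of Vsir but not of Havcr2, so the start of Havcr2 rests on RefSeq alone. Capitals mark matches, on either strand, to an AP-1 motif (TGANTCA), the NFAT core (GGAAA), an NR4A motif (AAAGGTCA) or a T-box motif (AGGTGTGA), factors of activated and exhausted T cells. No motif overlapped another in these runs.
Havcr2: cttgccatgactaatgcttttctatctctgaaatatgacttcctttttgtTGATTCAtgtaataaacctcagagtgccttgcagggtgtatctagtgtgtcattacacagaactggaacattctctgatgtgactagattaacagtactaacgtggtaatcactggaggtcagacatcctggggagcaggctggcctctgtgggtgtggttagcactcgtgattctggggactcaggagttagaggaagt
Ctla4: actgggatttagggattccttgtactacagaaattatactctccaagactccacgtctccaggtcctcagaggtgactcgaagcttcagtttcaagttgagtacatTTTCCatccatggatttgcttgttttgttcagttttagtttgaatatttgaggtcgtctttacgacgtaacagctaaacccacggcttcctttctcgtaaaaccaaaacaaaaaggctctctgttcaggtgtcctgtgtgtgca
Vsir: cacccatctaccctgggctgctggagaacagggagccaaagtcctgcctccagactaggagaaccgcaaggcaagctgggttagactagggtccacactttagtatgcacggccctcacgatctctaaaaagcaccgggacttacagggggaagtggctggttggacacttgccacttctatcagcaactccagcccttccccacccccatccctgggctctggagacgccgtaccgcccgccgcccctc
The Havcr2 run holds 1 AP-1 match, which 6.75% of the 32851 RefSeq promoters have in the same window. The Ctla4 run holds 1 NFAT core match on the reverse strand, which 55.6% of promoters have. The Vsir run holds 0 matches to any of the 4. Across all promoters 1.34% hold the NR4A and 1.12% the T-box letters, and none of the 9 genes with a promoter sequence does. A match is a description of letters and not a bound site.

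Among ligands of these receptors, 12 of 15 listed genes were in the table and 11 were tested. Of these, 7 had higher and 4 lower values, 0 passed, and the median log2 fold change was 0.08. Hmgb1, a chromatin protein that TIM-3 binds outside the cell, was at 181 and 202 CPM in JAML-negative A and B and 321 and 279 CPM in JAML-positive A and B (0.65, SE 0.23, edgeR adjusted p = 0.609). Hmgb1 passed with DESeq2 (lowest adjusted p over the alternatives 0.0036). Lgals9, which encodes the TIM-3 ligand galectin-9, was at 0.33 on the same scale (SE 0.31). Cd274, which encodes PD-L1, had one of -0.20 (SE 0.38), with JAML-negative B highest at 99.6 CPM.

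A list of 5 further receptors set beside the inhibitory ones held Cd226, Cd96, Icos and Tnfrsf14, the last being the gene of the ligand HVEM. Of the 5, 3 had higher and 2 lower values, 0 passed, and the median was 0.08. The TIGIT counterparts Cd226 (0.23, SE 0.23) and Cd96 (-0.29, SE 0.24) had values in opposite directions. Of 8 phosphatases, adaptors and other signalling genes below the receptors, the kinase gene Lck included, 5 had higher and 3 lower values. Of these 8, 0 passed (median 0.11). Ptpn11, which encodes the phosphatase SHP2 recruited by PD-1, was at 0.37 on that scale (SE 0.30). Of 9 listed ectoenzymes and purine receptors 7 were tested, with 3 higher and 4 lower values, 0 passing and a median of -0.22. Nt5e, which encodes CD73, the enzyme that makes adenosine from the AMP released by CD39, was at 78.1 and 144 CPM in JAML-negative A and B and 83.8 and 73.9 CPM in JAML-positive A and B (-0.50, SE 0.35). Adora2a, the adenosine receptor of T cells, had a value of -0.24 (SE 0.34).

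Of 12 transcription factors tied to exhaustion or effector function, 5 had higher and 7 lower values and 0 passed (median -0.25). Batf was at 17.6 and 18.5 CPM in JAML-negative A and B and 60.4 and 30.5 CPM in JAML-positive A and B (1.31, SE 0.56), and Id2 was at 0.58 on the log2 scale (SE 0.26). Nr4a1, induced by T cell receptor signalling, was at 719 and 835 CPM in JAML-negative A and B and 468 and 569 CPM in JAML-positive A and B (-0.58, SE 0.21). Ikzf2, which encodes the factor Helios, was at 104 and 83.0 CPM in JAML-negative A and B and 41.8 and 58.6 CPM in JAML-positive A and B (-0.89, SE 0.36). The edgeR adjusted p of these 4 genes was 0.609. Receptor genes and these factors thus had values on both sides of 0.

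Several of the 10 genes are also made by other cells, whose markers were measured beside them. CD4 and regulatory T cell markers had higher values in 9 of 10 cases (median 0.83, 0 passed), against 5867 of all 11563 genes tested. For 5 of the 10 markers the JAML-positive pair was above the JAML-negative pair, against 20.3% of all genes tested. The summed level of these markers was 318 and 358 CPM in JAML-negative and 441 and 475 CPM in JAML-positive libraries A and B. Il2ra (1.13, SE 0.40) and Cd40lg (4.24, SE 1.25) were among the higher ones, and the lower one was Ikzf2 (-0.89, SE 0.36). The value of Cd40lg, at 1 and 70 counts in JAML-negative A and B, ranged from 3.23 to 9.24 over the alternatives. Foxp3, which defines regulatory T cells, had 30 and 128 counts in JAML-negative A and B, 267 in JAML-positive A and 0 in JAML-positive B. The 0 counts allow up to 0.0981 CPM (3 counts over the library total without the TMM factor, counting error only). Ccr8 had 0 counts in both JAML-negative libraries. JAML-positive B had the highest levels of Ctla4, Tigit, Pdcd1, Lag3 and Havcr2. JAML-positive A was close to it for Ctla4 (357 against 390 CPM), Pdcd1 (79.2 against 83.0 CPM) and Havcr2 (130 against 141 CPM). Il2ra (102 CPM), Cd40lg (33.5 CPM), Cd4 (173 CPM) and the list's sum were also highest in JAML-positive B. In that library Foxp3 had 0 counts, and Ikzf2 was at 58.6 CPM, against 104 and 83.0 CPM in JAML-negative A and B. The part of CD4 and regulatory T cells in the values of the 10 genes was not tested.

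Markers of dendritic cells and MHC class II had higher values in 9 of 10 tested cases (median 2.11, 0 passed) and summed to 236 and 200 CPM in JAML-negative A and B and 506 and 308 CPM in JAML-positive A and B. Cd74 was one of them (2.03, SE 0.45). Xcr1 had 0 counts in JAML-positive B and Clec9a 0 in JAML-negative B. Plasmacytoid dendritic cell markers had higher values in 8 of 8 cases (median 3.92, 0 passed), with sums of 99.6 and 113 CPM in JAML-negative and 298 and 278 CPM in JAML-positive libraries, and Siglech at 4.07 (SE 0.79, and 3.21 to 6.78 over the alternatives). Ly6d had 0 counts in both JAML-negative libraries. Macrophage and monocyte markers, which include cells that make Havcr2 and Vsir, summed to 605 and 755 CPM in JAML-negative A and B and to 956 and 571 CPM in JAML-positive A and B, with 6 of 11 values higher (median 0.035). Mpeg1 of that list, a gene of phagocytes, was at 7.50 and 13.9 CPM in JAML-negative A and B. In JAML-positive A and B it was at 119 and 89.6 CPM (3.28, SE 0.49, edgeR adjusted p = 0.227). Apoe (-0.45, SE 0.41), Lyz2 (-0.04, SE 0.58) and Cd68 (0.17, SE 0.62) of the same list did not share this difference. B and plasma cell markers summed to 77.1 and 100 CPM in JAML-negative A and B and to 196 and 150 CPM in JAML-positive A and B, with 5 of 7 values higher (median 0.22) and Mzb1 at 0 counts in both JAML-negative libraries. Among them Jchain, the joining chain of antibodies, was at 4.90 on the log2 scale (SE 0.82, 4.03 to 7.81 over the alternatives, edgeR adjusted p = 0.238). NK cell markers summed to 373 to 410 CPM in all libraries, with 6 of 10 values higher (median 0.12). Hepatocyte markers had 2 of 7 genes tested, 1 higher and 1 lower, and summed to 18.1 to 63.1 CPM. Alb was the higher one (0.32, SE 0.84). Afp, the lower one, was at 21.7 and 23.2 CPM in JAML-negative A and B (-2.03, SE 0.83). In JAML-positive A and B Afp was at 3.56 and 7.16 CPM. Endothelial and stromal markers summed to 121 to 148 CPM, with 4 of 5 tested values higher (median 0.70). Most of that sum was Pecam1, the lower one, at 99.9 to 146 CPM (-0.27, SE 0.28). T cell markers had 4 higher and 4 lower values (median 0.01). In these groups of markers too, 0 genes passed edgeR's test, and list medians were the same with genes at 0 in a whole group set to the bound of 3 counts per library. The part of these cells in the values of Havcr2, Lag3, Btla, Cd38 and Vsir was not tested.

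**Figure D4:**
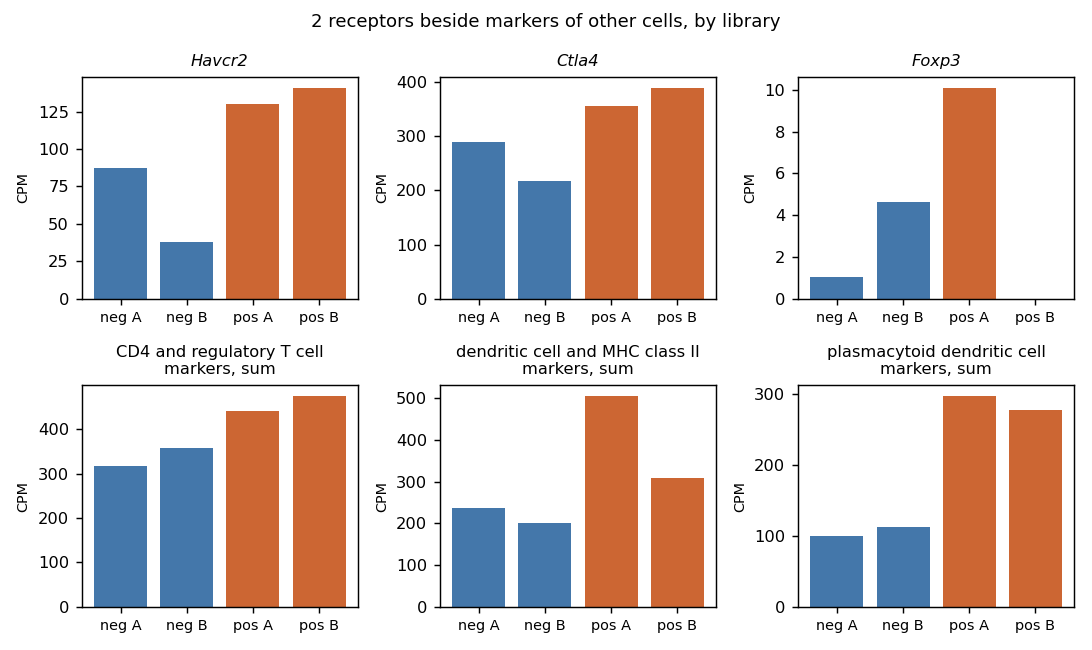
CPM of Havcr2, Ctla4 and Foxp3 and summed CPM of 3 marker lists in JAML-negative (blue) and JAML-positive (orange) libraries A and B. Havcr2 and Ctla4 are highest in JAML-positive B (141 and 390 CPM), as is the sum of CD4 and regulatory T cell markers (475 CPM), while Foxp3 (10.1 CPM) and the dendritic cell sum (506 CPM) are highest in JAML-positive A. The part of these cells in the receptor values was not tested.

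Genes with the library pattern most like that of Havcr2 were sought among 8653 genes, by the root mean square distance of log2 CPM centred over the 4 libraries. Near it lay Enpp4 (0.0437) and Mrpl38 (0.0631). Those nearest to Vsir were Atpaf2 (0.0125), Prmt7 (0.0223) and Gpr65 (0.0391). Within a distance of 0.1 there were 4 genes for Havcr2 and 60 for Vsir, so that 4 libraries leave the Vsir pattern shared by many genes.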

How the data were processed

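RNA was sequenced from 2 JAML-positive and 2 JAML-negative libraries. Per the labels' protocols, RNA was column-purified and libraries were made with a SMARTER mRNA kit. The authors deposited whole-number read counts per gene with Entrez identifiers, one column per library. Reads were placed on GRCm38 (mm10) according to the submitters' processing notes. The sources used here give no aligner, counter, strand setting or annotation.

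Counts were tested with edgeR 4.0.16 in R 4.3.3 over all genes (filterByExpr, minimum count 10, TMM, robust quasi-likelihood test without a block, Benjamini-Hochberg, threshold 0.05). SE is the log2 fold change over the square root of F, and 95% intervals use a t quantile. DESeq2 1.42.0, limma-voom 3.58.1 and other scalings, filters and left-out libraries were alternatives. Positions and promoters are RefSeq GRCm38.p6, matched by symbol or Entrez identifier (9 of 10 promoters). From other lists at most 4 genes of the smallest p at 10 CPM or more in a group could be named. The 10 genes and lists were chosen with earlier results of these data known.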

Additional observations from a re-analysis of the deposited data

How the results depend on the processing

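No alternative but DESeq2 passed any of the 10 genes. It passed 1 (Vsir) and 885 genes in all, 536 higher and 349 lower, among them Hmgb1, Nr4a1, Ikzf2, Cd40lg, Siglech, Cd74, Mpeg1 and Jchain, and edgeR without a filter on low counts passed 2, Jchain and Mpeg1. Of 150 values of the 10 genes over 15 alternatives, 142 kept direction and side of the threshold, 7 turned direction and 1 passed. Havcr2, Ctla4, Pdcd1, Lag3, Vsir and Entpd1 never turned. With 1 library left out, Tigit ranged from -0.33 to 1.12, Cd160 from -0.54 to 0.23, Btla from -0.35 to 0.28 and Cd38 from -0.64 to 0.79, and Cd38 was 0.071 with limma-voom. The median of the 10 ranged from 0.11 to 0.36 with 1 library left out (0.33 without JAML-positive A, 0.36 without JAML-negative B), and was -0.02 with the transcript length trend removed. With 1 library left out, where the lone library is assumed to vary like the other group, Cd274 ranged from -0.584 to 0.327, Nt5e from -0.874 to 0.020, Cd8a from -0.087 to 0.043 and Cd3e from -0.060 to 0.177. Cd3e was -0.057 with T cell genes as the library size, -0.039 with the length trend removed and -0.036 with it and the replicate block. T cell gene scaling moved the median of all genes to -0.10. The labels do not say whether the letters A and B pair the libraries. The correlation of same-letter deviations was 0.0176, and 2 libraries a group cannot settle the pairing. The replicate block passed 0 genes, with Havcr2 at 1.18 and Vsir at -0.55. The legacy quasi-likelihood method, chosen after seeing the data, also passed 0. The cause of each change was not tested. The counts behind the 10 genes, 731 to 12184 per library, limit only counting error, and the spread rests on 2 libraries a group.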

Other observations

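The ratio of Ctla4 to Vsir within a library, noticed after the values were seen, was 1.07 (A) and 0.708 (B) for JAML-negative cells, against 1.73 (A) and 2.05 (B) for JAML-positive cells. The ratio of Havcr2 to Entpd1 was also picked with the values known. In libraries A and B it was 1.07 and 0.510 (JAML-negative) and 2.81 and 1.94 (JAML-positive). Both ratios set a gene higher in JAML-positive libraries over a lower one, so the separation of the groups followed from the choice. Ratios of CPM within a library do not depend on its scaling. For Pdcd1 over Havcr2 they were 0.735 and 1.07 (JAML-negative) and 0.609 and 0.591 (JAML-positive). The 10 genes together took 0.112% to 0.136% of the counts of a library, and Ctla4 and Vsir 43.7% to 49.5% of the summed CPM of the 10.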
